A study of Mus musculus with 2 samples.

Results

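The Irx genes encode the Iroquois homeobox transcription factors. They were examined in a map of H3K27me3, the trimethylated form of lysine 27 of histone H3, in mouse sciatic nerve. The members are the 6 genes Irx1 to Irx6, taken by name, out of 21887 protein-coding genes. They stand in 2 clusters, Irx3, Irx5 and Irx6 on chromosome 8 and Irx1, Irx2 and Irx4 on chromosome 13. Peaks were assigned to a gene when they overlapped its annotated span plus 10 kb on each side, and peaks lying between the genes of a cluster were counted as well. This gave 69 of the 6018 deposited peaks, 23 of them at the genes and 46 between them. Chromatin immunoprecipitation followed by sequencing (ChIP-seq) had been done on whole sciatic nerve from C57/BL6 animals, all male and 8 weeks old, with 1 H3K27me3 ChIP library and 1 input library of the same tissue, strain, sex and age. No allele or treatment is named for either. How many animals were pooled is not stated. The deposited list gives the peaks of the 1 ChIP library, and whether the input entered the calling is not stated. Each value below thus describes 1 preparation, without replicates and without p-values. In whole nerve, a mark carried by part of the cells and a weaker mark in all of them cannot be told apart. A histone mark gives no RNA level, so the tissue label was not checked against expressed markers.

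Iroquois proteins belong to the TALE class of homeodomain factors, which carry an extra loop of residues in the DNA-binding domain. They pattern the neural tube, heart, limb, lung and retina in the embryo. Mammals keep the genes as a pair of clusters that arose by duplication, so that Irx3 and Irx1, Irx5 and Irx2, and Irx6 and Irx4 hold matching places. H3K27me3 is written by Polycomb repressive complex 2 and is known for covering developmental regulators in tissues where these are silent.

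To show the DNA under the mark, RefSeq promoter windows (GRCm38.p6, the build called mm10) are printed for the members that the table held, Irx3, Irx2 and Irx4. Each window runs from 250 bases before the transcription start to 50 after it and is written 5′ to 3′ on the gene's own strand, with every CG dinucleotide in capitals. Irx3 (chr8:91801605-91801904, minus strand), Irx2 (chr13:72628570-72628869, plus strand) and Irx4 (chr13:73260247-73260546, plus strand) each lay wholly inside an H3K27me3 peak. 3 further windows are shown for contrast, chosen after their values were seen. Irx3os (chr8:91803086-91803385, plus strand), a long non-coding RNA (lncRNA) gene beside Irx3, was wholly under a peak with few CG. Crnde (chr8:92356071-92356370, minus strand), an lncRNA gene beside Irx5, and Ndufs6 (chr13:73328433-73328732, minus strand), the protein-coding gene next above Irx4, were rich in CG and under none.
Irx3: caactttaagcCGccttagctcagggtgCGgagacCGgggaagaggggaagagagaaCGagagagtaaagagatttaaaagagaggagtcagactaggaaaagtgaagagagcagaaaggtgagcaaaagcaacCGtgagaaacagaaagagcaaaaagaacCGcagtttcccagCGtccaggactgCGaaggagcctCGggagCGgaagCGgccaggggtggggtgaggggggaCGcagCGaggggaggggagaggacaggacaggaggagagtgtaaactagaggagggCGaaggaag
Irx2: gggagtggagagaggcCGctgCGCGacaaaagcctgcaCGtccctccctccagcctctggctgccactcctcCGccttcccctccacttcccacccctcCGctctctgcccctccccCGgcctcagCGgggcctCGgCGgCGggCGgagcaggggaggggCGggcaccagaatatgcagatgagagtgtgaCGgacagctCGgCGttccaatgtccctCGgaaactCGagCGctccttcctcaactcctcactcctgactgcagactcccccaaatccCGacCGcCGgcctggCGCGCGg
Irx4: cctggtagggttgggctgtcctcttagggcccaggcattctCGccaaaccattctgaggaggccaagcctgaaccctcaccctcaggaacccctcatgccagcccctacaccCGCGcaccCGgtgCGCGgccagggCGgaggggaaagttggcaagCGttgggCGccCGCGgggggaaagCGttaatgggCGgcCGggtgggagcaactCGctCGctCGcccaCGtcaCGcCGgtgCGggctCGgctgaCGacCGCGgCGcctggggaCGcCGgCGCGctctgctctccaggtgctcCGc
Irx3os: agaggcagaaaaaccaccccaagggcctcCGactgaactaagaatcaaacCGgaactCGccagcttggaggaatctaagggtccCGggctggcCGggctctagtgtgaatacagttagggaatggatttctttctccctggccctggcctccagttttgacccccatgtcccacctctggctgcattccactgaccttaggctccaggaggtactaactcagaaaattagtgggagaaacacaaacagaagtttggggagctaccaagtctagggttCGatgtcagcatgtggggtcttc
Crnde: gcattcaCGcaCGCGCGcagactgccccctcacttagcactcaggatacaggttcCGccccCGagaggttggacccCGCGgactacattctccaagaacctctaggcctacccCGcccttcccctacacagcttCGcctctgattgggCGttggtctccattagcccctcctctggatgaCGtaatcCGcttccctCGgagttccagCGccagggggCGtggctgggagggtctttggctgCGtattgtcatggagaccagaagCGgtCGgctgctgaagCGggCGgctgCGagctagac
Ndufs6: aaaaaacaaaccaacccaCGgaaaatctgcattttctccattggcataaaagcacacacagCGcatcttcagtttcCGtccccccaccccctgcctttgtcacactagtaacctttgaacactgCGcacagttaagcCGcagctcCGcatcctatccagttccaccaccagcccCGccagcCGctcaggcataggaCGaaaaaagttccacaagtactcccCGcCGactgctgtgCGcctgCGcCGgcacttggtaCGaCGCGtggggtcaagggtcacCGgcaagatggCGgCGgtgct

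All 6 Irx genes carried H3K27me3 (100%), where 13.7% of all protein-coding genes had a peak in the same window. In 5 of the 6 a peak wider than 5 kb overlapped the window, against 0.987% of all genes, and in 5 of the 6 at least 50% of the gene span was covered, against 1.15% of all genes. Irx6 was the member outside both counts. Irx spans run only from 3144 to 10034 bp, and among the 8908 protein-coding genes of at most 12 kb the same shares were 11.7%, 1.41% and 2.63%. Reads are the authors' score per peak divided by a fitted step. That step is taken as 1 read, a scaling that the sources used do not state. The intervals of reads are exact Poisson 95% intervals that cover counting error only. Where a peak crosses a window's edge, all of its reads are counted.

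Irx3, which sets progenitor domains in the ventral neural tube, lies at chromosome 8, 91798511 to 91801654. Its window held 2 peaks with 335 reads (300.1 to 372.9). The main peak was the widest at any member, 11223 bp with 300 reads, and it covered 100% of the gene. It reached 2322 bp below the gene and 5757 bp above it, the side on which Irx3 transcription begins. A second peak of 1522 bp with 35 reads began 6756 bp above the gene. Among all protein-coding genes Irx3 ranked 118 by reads in the window.

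Irx5, which shapes the gradient of repolarization across the heart wall and acts in retinal bipolar cells, lies at chromosome 8, 92357796 to 92361456. It had the most reads of the family, 485 (442.8 to 530.1) in 5 peaks, and ranked 45 among all protein-coding genes. The main peak spanned 11074 bp with 351 reads and covered 100% of the gene. Smaller peaks of 53 and 16 reads lay below it and of 10 and 55 reads above it. Merging peaks within 5 kb joined them into a domain of 26853 bp with 497 reads, in 6 peaks, ranked 45 by width among 3818 such domains. The domain had 5 gaps, of 500 to 3017 bp. The shortest (92355923 to 92356422) separated the peak of 2607 bp with 53 reads from the main one. The printed promoter of Crnde, which is transcribed away from Irx5, lay wholly inside that gap. The gap is as wide as the shortest peaks of the list, 500 bp.

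Irx6, known from bipolar cells of the retina, lies at chromosome 8, 92674289 to 92680956, and carried the least of the mark. Its window held 125 reads (104.0 to 148.9) in 4 peaks. A peak of 2690 bp with 61 reads lay over the lower-coordinate end of the gene, and one of 1568 bp with 42 reads lay inside it. Together they covered 37.2% of the span and left the higher-coordinate end free. The 2 other peaks held 11 reads each, and 1 of them lay 9997 bp from the gene, just within the 10 kb limit. The nearest peak beyond the limit at any member held 12 reads and lay 14821 bp above Irx5.

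Irx1, which acts in heart, lung and limb development, lies at chromosome 13, 71958232 to 71963723. It had 237 reads (207.8 to 269.2) in 3 peaks. The main peak of 8529 bp with 214 reads covered 100% of the gene, and reached 2191 bp below it and 846 bp above it. The flanking peaks held 10 and 13 reads. Beyond these, the nearest 654 kb on the Irx2 side held no peak.

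Irx2, often expressed together with Irx1 in the embryo, lies at chromosome 13, 72624430 to 72634196. It had 300 reads (267.0 to 335.9) in 6 peaks, the most peaks at any member. The mark was more broken up here. The widest peak spanned 5463 bp with 136 reads and held the printed promoter, and the others held 63, 43, 31, 17 and 10 reads. Peaks covered 67.5% of the annotated span and neither of its ends. The span begins upstream of the printed promoter. The lncRNA gene Gm20554 starts head to head with Irx2, with overlapping promoter windows, and its window was also fully covered. With peaks of at least 20 reads alone, 55.9% of the Irx2 span was covered.

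Irx4, a regulator of the ventricular chamber of the heart, lies at chromosome 13, 73259589 to 73269622. It had 260 reads (229.4 to 293.6) in 3 peaks. The main peak of 10225 bp with 233 reads covered 96.9% of the gene and its printed promoter, and stopped 504 bp above the higher-coordinate end. The peaks beside it held 17 and 10 reads.

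**Figure D1:**
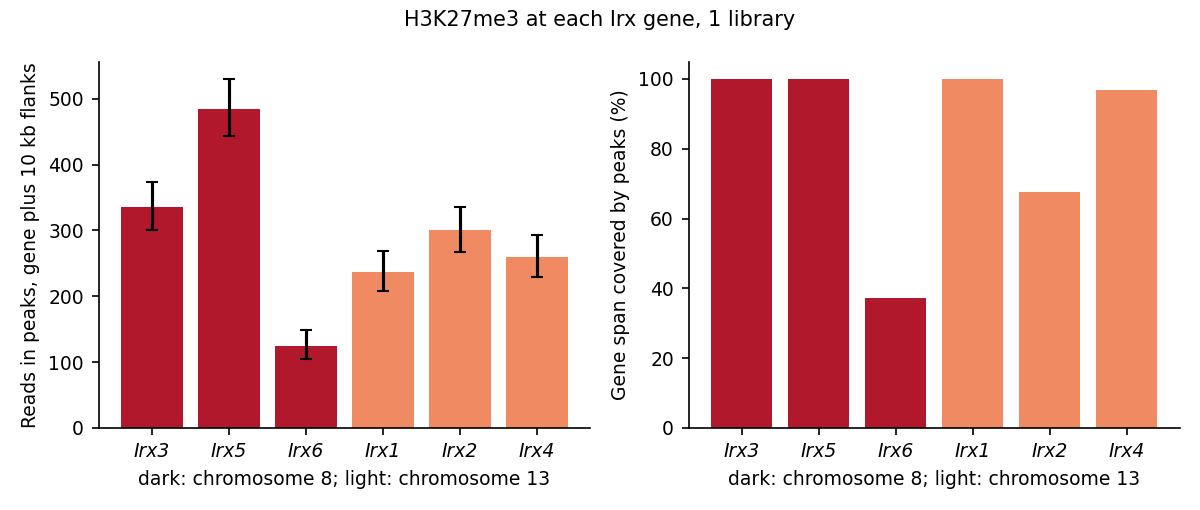
Left, reads in H3K27me3 peaks overlapping each Irx gene plus 10 kb flanks, with exact Poisson 95% intervals as bars; right, percent of the annotated gene span covered by peaks. Irx5 has the most reads (485) and Irx6 the fewest (125), and Irx6 and Irx2 are the 2 genes covered least, at 37.2% and 67.5%.

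The order by reads was Irx5, Irx3, Irx2, Irx4, Irx1 and Irx6. Irx5 stood above Irx3 and Irx6 below Irx1 without overlap of their counting intervals. Between these, each neighbouring pair in the order had overlapping intervals, while the interval of Irx3 lay above those of Irx4 and Irx1. Per length, the widest peaks of the members had 22.7 reads per kb at Irx6, 22.8 at Irx4, 24.9 at Irx2, 25.1 at Irx1, 26.7 at Irx3 and 31.7 at Irx5. The median peak of the list had 21.0 reads per kb, and its shortest peaks have at least 20 by their minimum of 10 reads in 500 bp. The same peaks were 2690 to 11223 bp wide, where the median of all peaks was 643 bp. As each was picked as the widest of its window, that median is not a like measure. By the widest peak in the window, the members ranked from 49 (Irx3) to 496 (Irx6) among all protein-coding genes.

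Matching genes of the clusters did not differ in one direction. Irx3 had 335 reads and Irx1 237, a ratio of 1.41 (1.19 to 1.68, exact binomial 95% interval of the counts). Irx5 had 485 reads and Irx2 300, a ratio of 1.62 (1.40 to 1.87). Irx6 had 125 reads and Irx4 260, a ratio of 0.481 (0.385 to 0.597). The chromosome 8 gene was thus higher in 2 pairs and lower in the third. Variation between animals is not part of these intervals.

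Between the genes, the chromosome 8 cluster held many more peaks. The chromosome 8 cluster, 882 kb from Irx3 to Irx6, held 56 peaks (42.3 to 72.7) with its flanks, or 62.1 per Mb. The chromosome 13 cluster, 1311 kb from Irx1 to Irx4, held 13 peaks (6.92 to 22.2), or 9.76 per Mb. The ratio of these densities was 6.36 (3.43 to 12.7, exact binomial 95% interval, which treats peaks as independent although neighbouring peaks need not be). At the genes themselves the counts were similar, 11 peaks on chromosome 8 and 12 on chromosome 13. The contrast lay in the 45 peaks over 10 kb from any member on chromosome 8, against 1 on chromosome 13. These 45 peaks held 599 reads, 38.8% of the reads of their cluster, and the 1 on chromosome 13 held 21 reads, 2.57% of its cluster's. With peaks of at least 20 reads alone, 4 such peaks were left on chromosome 8 and 1 on chromosome 13. Over the whole clusters with flanks, this filter left 11 peaks on chromosome 8 and 7 on chromosome 13. The ratio of peaks per Mb was then 2.32, for which no interval was computed.

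**Figure D2:**
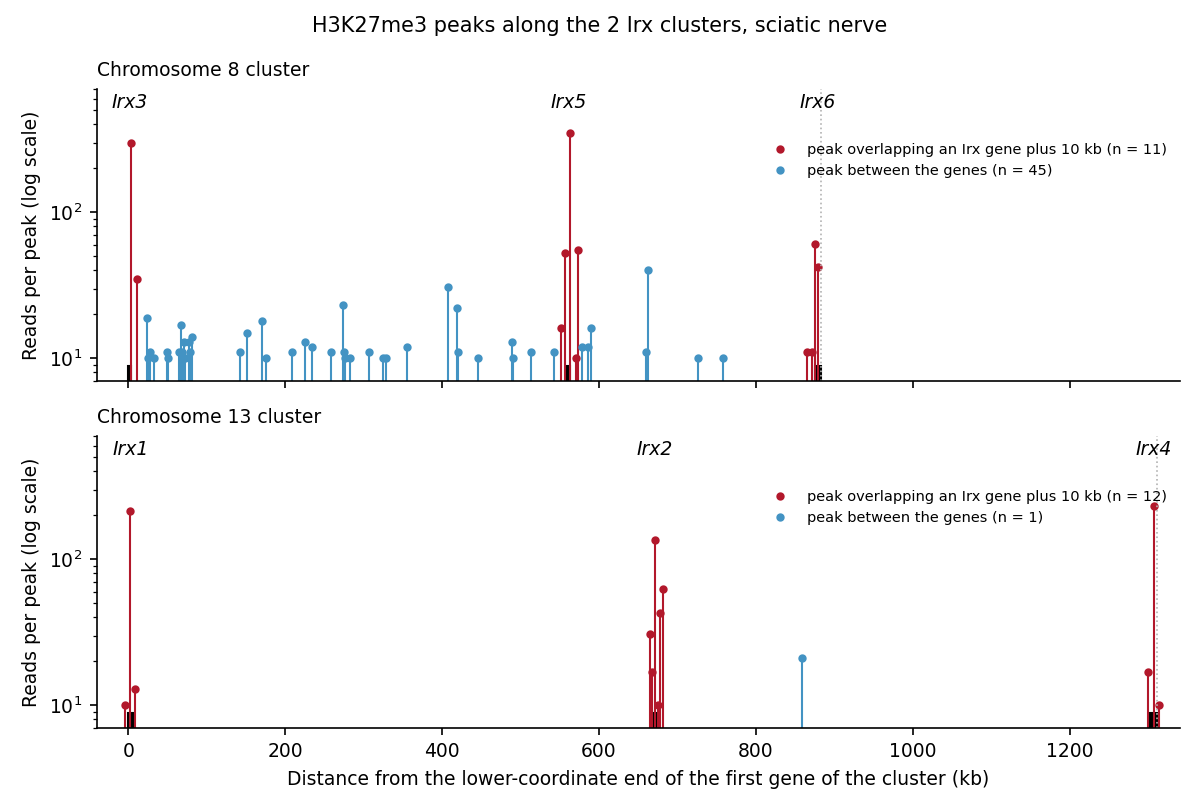
Each stem is 1 H3K27me3 peak at its midpoint, with distance along the cluster in kb on the x axis and reads per peak on a log y axis; black blocks mark the genes, and the dotted line marks the end of the cluster. Both clusters have tall peaks at the genes, and the 45 low peaks between the genes stand in the chromosome 8 cluster, against 1 in the chromosome 13 cluster.

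The peaks between the chromosome 8 genes were narrow and low. Their median was 11 reads, the range was 10 to 40 reads, and 30 of the 45 (66.7%) had the shortest width of 500 bp, against 41.6% of all peaks in the list. Of the 45, 27 had at most 11 reads, against 36.7% of all peaks in the list, whose median was 14 reads. The strongest lay between Irx5 and Irx6, at 92459987 to 92462184, with 2198 bp and 40 reads. Next came a peak of 1652 bp with 31 reads at 92205201 to 92206852 and one of 1258 bp with 23 reads at 92071344 to 92072601, both between Irx3 and Irx5. A peak of 10 reads has an interval of 4.80 to 18.4 reads, so single peaks of this kind are weakly measured.

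Most of them stood in the 556 kb between Irx3 and Irx5. That interval held 43 peaks (31.1 to 57.9), of which 38 with 488 reads lay over 10 kb from both genes. Every one of its 12 bins of up to 50 kb held at least 1 peak, the median gap between peaks was 6.39 kb and the longest was 61.3 kb. Peaks were densest in the first 100 kb above Irx3, with 16, and 13 of the 43 overlapped Irx3os, which spans 70387 bp of that stretch. Both counts include the 2 peaks of the Irx3 window, and 11 of the 13 lay outside that window. Altogether 19 of the 43 overlapped an annotated lncRNA gene and 24 overlapped none. Between Irx5 and Irx6, 313 kb apart, there were 13 peaks (6.92 to 22.2), 7 of them over 10 kb from both genes, and 107 kb without a peak. On chromosome 13 the 661 kb between Irx1 and Irx2 held 3 peaks, none of them over 10 kb from both genes, and an empty stretch took up 99.0% of it. The 625 kb between Irx2 and Irx4 held 4 peaks, and the 1 over 10 kb from both genes had 21 reads and overlapped the end of the lncRNA gene D730050B12Rik.

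Set beside the other stretches between protein-coding genes, the interval between Irx3 and Irx5 held the most peaks. Among 2967 intervals of at least 100 kb between neighbouring protein-coding genes, 19.9% held at least 1 peak and 1.01% held at least 10. The interval from Irf8 to Foxf1, named after its value was seen, came second with 27 peaks, also on chromosome 8. Irx5 to Irx6 ranked 16 with 13 peaks, while Irx2 to Irx4 and Irx1 to Irx2, with 4 and 3, were among the 5.70% with at least 3. Over 10 kb from both genes, Irx2 to Irx4 held 1 peak and ranked 160, a place shared by all intervals with 1. Irx1 to Irx2 held 0 and ranked 388, the last place, shared by all intervals with 0. The Irx3 to Irx5 interval also ranked 1 by peaks over 10 kb from both bounding genes, with 38. By peaks of at least 20 reads it ranked 9, with 7, of which only 3 lay over 10 kb from both genes. It ranked 12 by peaks per Mb, at 77.3, and 24 by covered share, at 6.52%. Over all 2967 intervals together the density was 1.25 peaks per Mb.

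**Figure D3:**
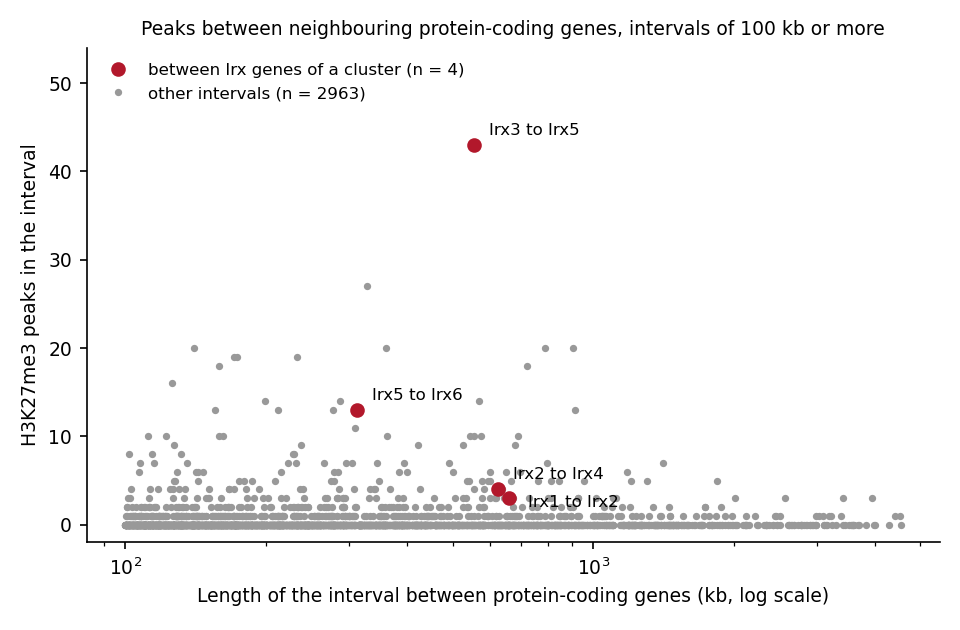
Number of H3K27me3 peaks (y axis) against interval length in kb (x axis, log scale) for the 2967 intervals of at least 100 kb between neighbouring protein-coding genes. The Irx3 to Irx5 interval, with 43 peaks, stands above all others, and the 2 intervals of the chromosome 13 cluster hold 4 and 3.

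The mark stopped close to the clusters on most sides. Above Irx6, the 146 kb up to Mmp2, which encodes a matrix metalloproteinase, had 0 peaks, which allows up to 3 by counting error. Below Irx3, the stretch to Fto held 3 peaks over 10 kb from either gene, with 19, 12 and 11 reads. Fto itself, an RNA demethylase gene whose introns are known to hold enhancers that contact Irx3, had none. Below Irx1, the next peak lay at the end of Adamts16, with 15 reads, across an interval of 1116 kb. Above Irx4, Ndufs6, a subunit gene of mitochondrial complex I, had none. Of the 36 protein-coding genes within 1 Mb of the clusters, 3 (8.33%) had a peak in the gene or its 10 kb flanks, against 13.7% of all genes.

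Of these 3, 2 are related and hold matching places. Slc6a2, the noradrenaline transporter gene 279.5 kb above Irx6, had 50 reads in 2 peaks, and the larger, 1247 bp with 33 reads, overlapped the gene's lower-coordinate end. Slc6a3, the dopamine transporter gene 267 kb above Irx4, had 1 peak of 1581 bp with 41 reads that began 50 bp inside the lower-coordinate end. Between each and its Irx cluster lies a lysophosphatidylcholine acyltransferase gene, Lpcat2 on chromosome 8 and Lpcat1 on chromosome 13, and neither had a peak. The third was the sodium-proton exchanger gene Slc9a3, with 21 reads in 2 peaks inside the gene. Of the other Slc6 genes above Irx4, Slc6a18 and Slc6a19, at 392 and 410 kb, had no peak.

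Several lncRNA genes of the clusters also overlapped peaks. Of 9 lncRNA genes within the chromosome 8 cluster and its flanks, 6 overlapped a peak, and of 8 on chromosome 13, 2 did, where 5.98% of all 12727 lncRNA genes overlapped one. These counts include the peaks at the Irx genes. Irx3os overlapped 13 peaks with 468 reads and was covered over 17.3% of its span. Of these, 335 reads in 2 peaks were those of the Irx3 window, and 133 reads in 11 peaks lay outside it. Crnde overlapped 3 peaks with 80 reads and was covered over 12.5%. On chromosome 13, Gm20554 overlapped 2 of the Irx2 peaks, with 153 reads, and was covered over 42.7%. None of the 4 pseudogenes there overlapped a peak.

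The printed promoters differed in base composition although all 3 lay under the mark. Irx4 had 31 CG and 70.7% G or C, Irx2 had 25 CG and 69.0%, and Irx3 had 14 CG and 56.0%. Among 21263 promoter windows of 17492 protein-coding genes the median was 13 CG and 56.3% G or C. The 940 windows that overlapped a peak had a median of 19 CG, and the 20323 that overlapped none had a median of 12. Windows with 0 to 4 CG overlapped a peak in 0.713% of cases and those with 10 to 19 CG in 7.73%, while those with 20 to 29 CG did so in 6.22% and those with 30 or more in 5.09%. Of the windows chosen for contrast, the uncovered ones had 22 CG at Crnde and 20 at Ndufs6, and the covered one had 6 at Irx3os.

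Motif letters were counted in the same windows, as descriptions only. GAGA, counted on both strands with overlaps, occurred 11 times in the Irx3 window, and 0.706% of all windows had as many or more. Irx2 had 4 and Irx4 had 2, and 93.7% of all windows had at least 1. CGCG, which contains CG, occurred 5 times at Irx4, 3 times at Irx2 and not at Irx3, and 49.2% of all windows held it. CANNTG, the E-box, occurred once each at Irx2 and Irx4 and in 69.0% of all windows. ACANNTGT, which holds the letters of CANNTG and is known from Drosophila as an Iroquois binding sequence, occurred in none of the 3 and in 6.06% of all windows. The last 3 read the same on both strands.

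**Figure D4:**
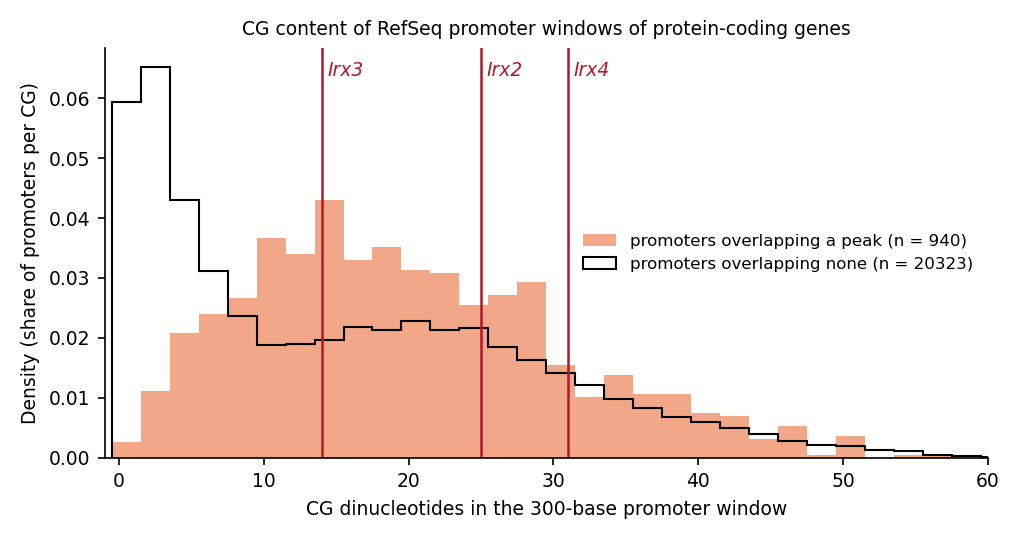
Distribution of the number of CG dinucleotides in 300-base RefSeq promoter windows (x axis) for the 940 windows that overlap an H3K27me3 peak (filled) and the 20323 that overlap none (outline), as densities. Red lines mark Irx3 (14), Irx2 (25) and Irx4 (31), all of them inside peaks.

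The Irx genes were set beside other homeobox genes and factors of the same tissues. Median reads in the gene plus 10 kb were 280 over the 6 Irx genes, 314.5 over the 6 Dlx genes and 0 over all protein-coding genes. Genes in a tight pair, such as Dlx1 and Dlx2, share peaks. All 6 Dlx genes had a peak. All 11 factors that pattern the neural tube with Irx3 had one, led by Pax6 (762 reads), Pax7 (716) and Olig2 (403), with a median of 272. Of 9 heart chamber factors, 8 did, led by Gata4 (801), Tbx5 (655) and Nkx2-5 (565), with a median of 284, and Mef2c did not. Of 12 TALE relatives outside the Irx family, which are cofactors and repressors such as the Pbx and Tgif proteins, 4 had a peak. These were Meis2 (362 reads), Meis1 (162), Mkx (71), the gene of the tendon factor Mohawk, and Pbx4 (53). None of the 12 was covered over 50% of its span, whereas 5 of 6 Irx genes were. The differences between lists were not tested, as there is 1 library.

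**Figure D5:**
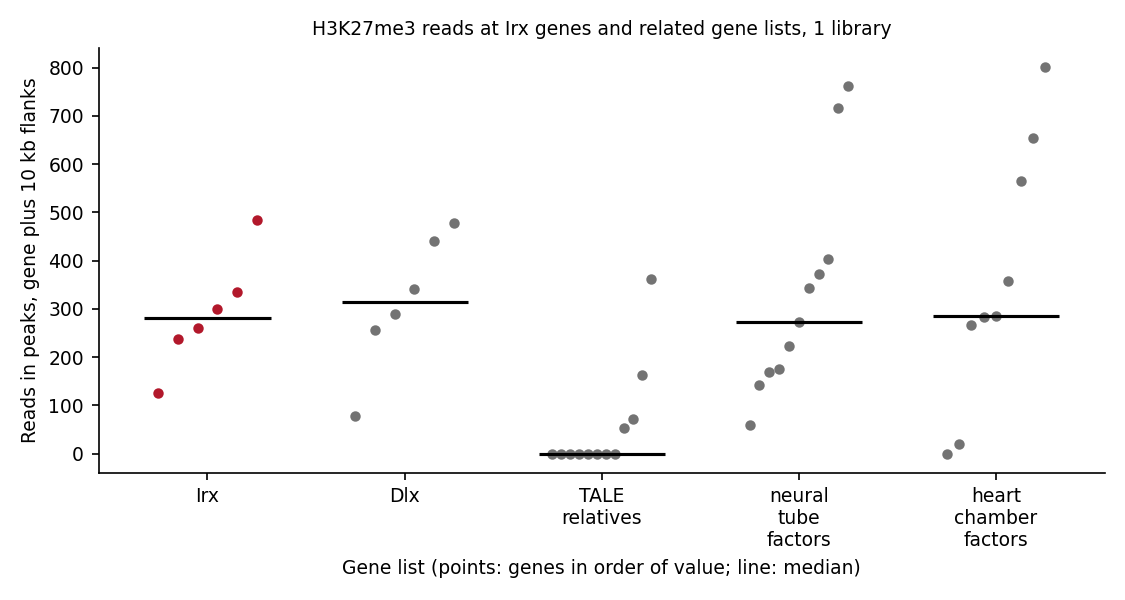
Reads in H3K27me3 peaks overlapping each gene plus 10 kb flanks, 1 point per gene in order of value, with the median of each list as a line. The Irx genes lie between 125 and 485 reads, and 8 of the 12 TALE relatives lie at 0.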

How the data were processed

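H3K27me3 ChIP DNA and its input from sciatic nerve were sequenced in 1 library each. Bowtie and build mm10 are named per the submitters' processing notes. Which program called the peaks, with what cutoff and whether against the input, is not given in the sources used, and input values were not analysed here. The authors deposited 1 list of 6018 peaks with a score each. A step of 2.5735 fits them as a unit, with 99.77% of scores no more than 0.05 from a whole number of steps. Scores were divided by this step, rounded and read as reads. The list then holds 185225 reads, a median of 14 and a minimum of 10 per peak. The depth of the libraries is unknown, and intervals cover counting error only.

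Starts were read as 0-based and are given 1-based. Gene spans came from the RefSeq table of GRCm38.p6, the build called mm10, which gives no strand or exons. Strands and sequences came from the RefSeq promoter table. Overlap counted from 1 bp. Python 3.11.15, pandas 2.3.3 and scipy 1.17.1 were used, and the overlap code was checked on simulated peaks. With 1 library no test was run. Alternatives were flanks of 2, 5 and 20 kb, the 3061 peaks whose score reached the median, the 2125 peaks of at least 20 reads, at least 50% of a peak inside the window and other merging distances. The genes, lists and neighbours named were chosen by rule, all with earlier results of these data known, and exceptions are marked in the text. One further list is not reported here.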

Additional observations from a re-analysis of the deposited data

How the results depend on the processing

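All 6 Irx genes kept a peak under each of 6 alternative windows and peak filters, and reads in both clusters stayed between 1754 and 2362. The number of peaks depended on the filter. Both clusters together held 69 peaks, 27 at or above the median score and 18 of at least 20 reads. Over 10 kb from the genes, the chromosome 8 cluster held 45, 10 and 4 peaks under the same settings. The ratio of peaks per Mb, chromosome 8 over chromosome 13 cluster, was 6.36, 2.95 and 2.32, and the Irx3 to Irx5 interval held 43, 13 and 7 peaks. That interval ranked 1 by peaks, 1 by peaks over 10 kb from both genes, 9 by peaks of at least 20 reads and 12 by peaks per Mb. Merging within 1 kb in place of 5 kb gave 61 domains in place of 34. The covered share of the chromosome 8 cluster was 7.29%, 7.20% without flanks and 5.06% with peaks at or above the median score. For the chromosome 13 cluster it was 2.64%, 2.39% and 2.47%. The filters leave fewer peaks by construction. Of the single-gene values of peaks and reads, 60 moved by at most 1.5 times and 12, all peak counts, moved further. Of the covered shares of gene spans, 10 were unchanged under the filters, and those of Irx2 were 62.4% and 55.9%, against 67.5%. The counts over 10 kb from the genes, the ratio, the interval and its ranks were added after seeing the data. No paired analysis was possible because there is 1 ChIP library.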
